A study of Arabidopsis thaliana with 10 samples.

Results

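Cytochrome P450 genes were followed in rosette leaves of Arabidopsis thaliana plants of a CesA4 line and a CesA6 line, called in the labels by the names of cellulose synthase genes. The members are the probe sets (the array's units of measurement, each aimed at a transcript) annotated to exactly 1 gene whose symbol is CYP, a family number of 2 or 3 digits, a capital letter and a number. There were 22 such probe sets for 22 genes, out of 22810 probe sets on the array. The reference lists 225 genes with a symbol of this form, and the other 203 had no probe set named with 1 gene in the annotation used here and are not analysed here. The members comprised 18 of the 35 CYP71B genes of the reference and 4 others, CYP78A9, CYP79A2, CYP84A4 and CYP51G2.

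The samples were 10 Affymetrix ATH1 arrays in 4 groups of untreated plants in the Col-0 ecotype, 4 weeks old, grown at 22 °C in a room chamber with humidity at 50%. The CesA4 line, allele irx5-2, had 3 arrays of homozygous and 3 of heterozygous plants. The CesA6 line had 2 arrays of each genotype, and the labels give its allele as irx6-1. In the reference IRX6 is a name of COBL4, so which gene this line carries a mutation in was not settled here. Wild-type plants are not analysed here, so both the homozygous plants and their heterozygous reference carry the mutation. The labels do not say whether arrays came from separate plants or pools, so p-values measure only the spread between these arrays. No probe set was named for CESA4, CESA6 or COBL4 in the annotation used, and the labelled genotypes could not be set against their transcripts.

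Plant P450s are haem-containing monooxygenases, most of them anchored in the endoplasmic reticulum, which take electrons from a reductase partner and insert oxygen into small molecules. Enzymes with related sequence share a family number, close relatives share the subfamily letter, and families are joined into clans. In leaves, P450s of clan 71 are known for the synthesis of glucosinolates, phenylpropanoids and indolic defence compounds, and CYP71B15 (not among the members) makes the antimicrobial compound camalexin. Clan 51 holds the sterol demethylases that eukaryotes share.

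Of the 22 genes 21 belong to clan 71, and 1, CYP51G2, to clan 51. The values are MAS5 signals, which are linear intensities scaled to a common level on every array. Signals of different probe sets are not compared as transcript amounts here, since each probe set binds with its own strength. The mean signal over all arrays had a median of 24.6 over the members, against 35.6 over all probe sets of the array. It was above 100 for CYP71B26, CYP71B6 and CYP71B28, between 20 and 100 for 9 genes and 20 or below for 10 genes.

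**Figure D1:**
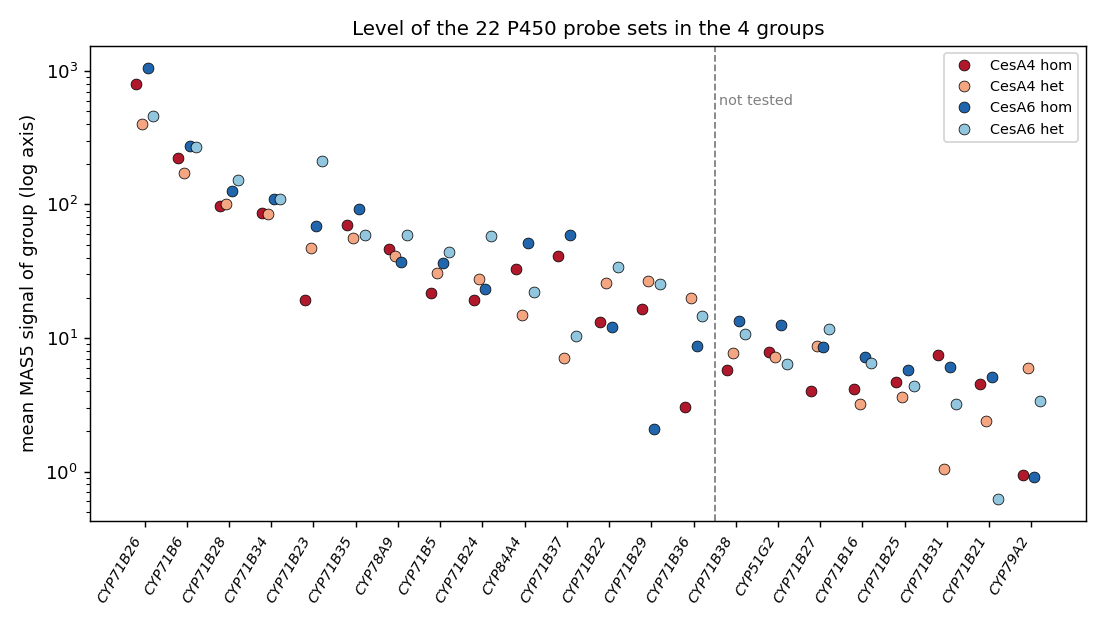
Mean MAS5 signal (log axis) of each of the 22 P450 probe sets in each group, with CesA4 (n = 3 arrays per genotype) and CesA6 (n = 2 per genotype) plants that were homozygous (hom) or heterozygous (het). The 8 probe sets right of the dashed line had a mean signal of 8.86 or less over all arrays and were not tested.

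Probe sets in the lowest 30% by mean signal did not enter the tests, which removed 8 members and kept 14. The untested members were CYP71B16, CYP71B21, CYP71B25, CYP71B27, CYP71B31, CYP71B38, CYP79A2 and CYP51G2. Their signals on single arrays ran from 0.370 to 23.5, and their means from 2.92 to 8.86. Among them are CYP79A2, which starts benzyl glucosinolate synthesis from phenylalanine, CYP71B31, known for linalool metabolism in flowers, and CYP51G2, a relative of the obtusifoliol demethylase of sterol synthesis. CYP79A2 stood at 1.17, 0.953 and 0.683 in homozygous and at 1.03, 1.29 and 15.5 in heterozygous CesA4 plants. CYP79A2 in the CesA6 line was at 0.825 and 0.984 in homozygous and at 0.565 and 6.16 in heterozygous plants. The arrays of both genotypes overlapped in each line for CYP79A2, as they did for CYP71B31, CYP71B16, CYP71B25 and CYP71B38. In the CesA6 line the arrays did not overlap for CYP71B21, at 3.84 and 6.42 in homozygous and 0.871 and 0.370 in heterozygous plants. Nor did they for CYP51G2 and CYP71B27, and all of these had signals too low for a test. Among all tested probe sets, the CesA6 groups did not overlap for 23.1% with homozygous plants higher and 28.6% with them lower. No such share was taken over the untested probe sets.

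The first question was which P450 genes differ between homozygous and heterozygous plants, in each line and over both. Over both lines 6 of the 14 tested genes passed. CYP71B26, CYP71B37 and CYP84A4 were higher in homozygous plants, and CYP71B23, CYP71B24 and CYP71B29 were lower. Changes were fitted with limma on log2 signals with a pseudocount, and a gene passed where its p-value, adjusted over all 15922 tested probe sets by the Benjamini-Hochberg method, was under 0.05. For the mean of both lines the share of all tested probe sets that passed was 18.2%, and among the P450 genes it was 42.9%. Of all tested probe sets 9.06% were called higher and 9.14% lower. In the CesA4 line 2 of 14 genes passed (14.3%, against 15.1% of all tested probe sets), a share near the background, and both were higher, where 8.2% of all were called higher and 6.93% lower. For CesA6 plants 3 of 14 passed (21.4%, against 8.53%), 2 higher and 1 lower, where 3.72% of all were called higher and 4.8% lower. With 14 genes, these shares rest on a few calls.

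CYP71B26 (AT3G26290), the P450 with the brightest signal, was higher in homozygous plants of both lines. In the CesA4 line its signal was 759, 676 and 965 on the homozygous arrays and 383, 377 and 429.8 on the heterozygous arrays. Its CesA6 signals were 991 and 1128 on the homozygous and 457 and 459 on the heterozygous arrays. Every homozygous array lay above every heterozygous array of either line. The log2 change was 0.99 ± 0.15 (SE, adjusted p = 3.8e-05 by limma) in the CesA4 line and 1.20 ± 0.18 (adjusted p = 8.59e-05) in the CesA6 line, or 2.02 and 2.32 times on the means of the signals. No enzymatic role is stated here for CYP71B26.

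CYP71B37 (AT3G26330) had the largest rise of the 14 genes. Its signals were 32.5, 56.4 and 33.8 in homozygous and 3.06, 17.1 and 1.21 in heterozygous CesA4 plants. CesA6 plants had signals of 55.7 and 62.8 when homozygous and 4.27 and 16.4 when heterozygous. Replicate 2 of the heterozygous plants was the highest of its group in each line, and all heterozygous arrays lay below the homozygous arrays. The log2 change was 2.38 ± 0.54 (limma, adjusted p = 0.0029) in the CesA4 line and 2.36 ± 0.66 (adjusted p = 0.0246) in the CesA6 line. The CesA6 call was lost without homozygous CesA6 replicate 1 or 2 (adjusted p = 0.102 and 0.179) or heterozygous CesA6 replicate 1 (adjusted p = 0.262). It was also lost with a pseudocount of 4 (adjusted p = 0.06) and with eBayes without trend and robust (adjusted p = 0.0998). The CesA4 value was 1.49 with a pseudocount of 64, and that call was kept.

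CYP84A4 (AT5G04330) is the enzyme known for making arabidopyrones, pyrone compounds derived from the phenylpropanoid pathway, and the relative of the ferulate hydroxylase of lignin synthesis. Its signals were 46.8, 21.5 and 30.5 in homozygous and 14.4, 16.9 and 13.0 in heterozygous CesA4 plants. They were 51.7 and 51.4 in homozygous and 25.3 and 19.1 in heterozygous CesA6 plants. The groups did not overlap in either line. The change passed over both lines, at 1.04 ± 0.28 on the log2 scale (limma, adjusted p = 0.011), and in neither line alone, at 0.95 ± 0.36 (adjusted p = 0.0786) and 1.12 ± 0.44 (adjusted p = 0.131). Without heterozygous CesA6 replicate 2 the change over both lines was 0.95 with an adjusted p of 0.0538.

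**Figure D2:**
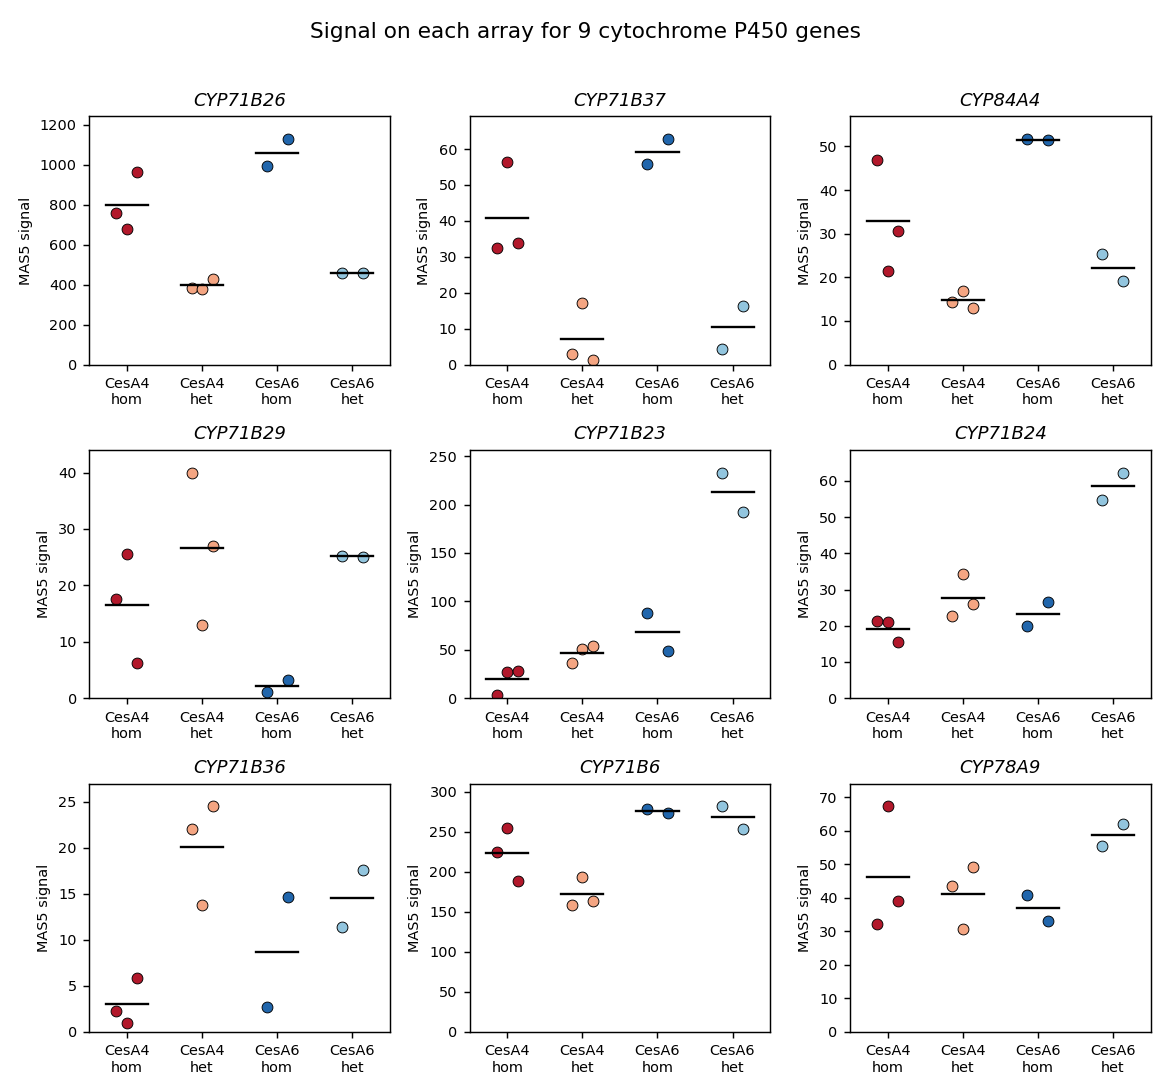
MAS5 signal on each array for 9 P450 genes, with 1 panel per gene, points for arrays and a line at the group mean, for homozygous (hom) and heterozygous (het) CesA4 plants (n = 3 each) and CesA6 plants (n = 2 each). The homozygous CYP71B26 arrays sit between 676 and 1128 and the heterozygous ones between 377 and 459, while CYP71B23 is at 192 and 233 in heterozygous CesA6 plants and at 88.1 or below elsewhere.

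CYP71B29 (AT1G13100) was lower in homozygous plants of the CesA6 line. There its signals were 1.06 and 3.15 in homozygous and 25.2 and 25.1 in heterozygous plants. In the CesA4 line it was at 17.6, 25.6 and 6.16 in homozygous and at 40.0, 13.0 and 26.9 in heterozygous plants, and the arrays overlapped. The log2 change was -2.45 ± 0.68 (limma, adjusted p = 0.0245) in the CesA6 line and -0.64 ± 0.56 (adjusted p = 0.519) in the CesA4 line. The homozygous CesA6 mean lay below the pseudocount, which equals 3.2 on the deposited scale, so that the first value is a shrunken estimate. The CesA6 call was lost without any 1 of the 4 CesA6 arrays, with adjusted p from 0.0522 to 0.14, and when the CesA6 arrays were fitted alone (adjusted p = 0.0733). With a pseudocount of 64 the CesA6 value was -1.35 and the value over both lines -0.89, and both passed. Over both lines the change was -1.54 ± 0.44 (adjusted p = 0.0149), and that call was lost without heterozygous CesA4 replicate 1 (adjusted p = 0.0533) or heterozygous CesA6 replicate 1 or 2 (adjusted p = 0.0599 and 0.0592).

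CYP71B23 (AT3G26210) was lower in homozygous plants over both lines. Its signals were 3.09, 26.8 and 28.2 in homozygous and 36.4, 51.1 and 53.5 in heterozygous CesA4 plants. They were 88.1 and 48.9 in homozygous and 233 and 192 in heterozygous CesA6 plants. All homozygous arrays lay below the heterozygous arrays of their line, and homozygous CesA4 replicate 1 lay far below the other 2 of its group. The change over both lines was -1.55 ± 0.44 on the log2 scale (limma, adjusted p = 0.0365). It was -1.45 ± 0.56 in the CesA4 line (adjusted p = 0.124) and -1.64 ± 0.68 in the CesA6 line (adjusted p = 0.207). Without homozygous CesA4 replicate 1 the CesA4 value was -0.69 (adjusted p = 0.108), and the CesA6 value was the same with an adjusted p of 0.00079, and from the CesA6 arrays alone the adjusted p was 0.000551. The call over both lines was lost without heterozygous CesA4 replicate 1, 2 or 3 (adjusted p = 0.0691, 0.0779 and 0.0775), homozygous CesA6 replicate 2 (0.154), or heterozygous CesA6 replicate 1 or 2 (0.0736 and 0.0587). It was also lost with a pseudocount of 4 (0.0898), without the filter on low signal (0.0524) and with eBayes without trend and robust (0.0519).

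CYP71B24 (AT3G26230) was also lower over both lines. Its signals were 21.2, 21.1 and 15.4 in homozygous and 22.6, 34.3 and 26.0 in heterozygous CesA4 plants. They were 19.8 and 26.5 in homozygous and 54.6 and 62.3 in heterozygous CesA6 plants. The groups did not overlap in either line, though in the CesA4 line they lay close together. The change over both lines was -0.84 ± 0.26 (limma, adjusted p = 0.0259), from -0.45 ± 0.33 in the CesA4 line (adjusted p = 0.425) and -1.23 ± 0.41 in the CesA6 line (adjusted p = 0.0619). The call was lost without heterozygous CesA4 replicate 2 (adjusted p = 0.0701), homozygous CesA6 replicate 1 (0.0902), or heterozygous CesA6 replicate 1 or 2 (0.0716 and 0.118).

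The other 8 tested genes did not pass in any genotype comparison. CYP71B36 (AT3G26320) came close in the CesA4 line, where its signals were 2.29, 0.911 and 5.89 in homozygous and 22.0, 13.8 and 24.5 in heterozygous plants. The groups did not overlap, and the log2 change of -1.95 ± 0.67 (limma, adjusted p = 0.0512) is a shrunken estimate with a homozygous mean below the pseudocount. It passed under 7 of 18 alternatives. CYP71B36 in the CesA6 line was at 2.72 and 14.6 in homozygous and 11.4 and 17.6 in heterozygous plants, which overlap, with a change of -0.76 ± 0.82. CYP71B22 (AT3G26200) had estimates of -1.04 ± 0.55 and -1.23 ± 0.68 in the CesA4 and CesA6 lines. CYP71B35 (AT3G26310) had estimates of 0.30 ± 0.24 and 0.57 ± 0.29 in the same order. CYP71B5 (AT3G53280) stood at -0.47 ± 0.40 and -0.22 ± 0.49.

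For 2 of the brighter genes the interval of the genotype change was narrow and held 0. CYP71B28 (AT1G13090) changed by -0.17 over both lines with a 95% interval from -0.52 to 0.17, and CYP71B34 (AT3G26300) by -0.02 with an interval from -0.38 to 0.34. A change of log2 1, the size seen for CYP71B26, lies outside both intervals. CYP71B6 (AT2G24180), which converts indole-3-acetonitrile towards indole-3-carboxylic acid in the indolic defence pathway, had a change of 0.20 with an interval from -0.06 to 0.46. CYP78A9 (AT3G61880), of the family that promotes organ growth and known for its effect on fruit and seed size, had a change of -0.26 with an interval from -0.72 to 0.21. Its signals were 32.2, 67.4 and 39.0 in homozygous and 43.4, 30.6 and 49.1 in heterozygous CesA4 plants, and 40.8 and 33.1 against 55.5 and 62.1 in the CesA6 line. The CYP78A9 groups overlapped in the CesA4 line and did not in the CesA6 line.

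**Figure D3:**
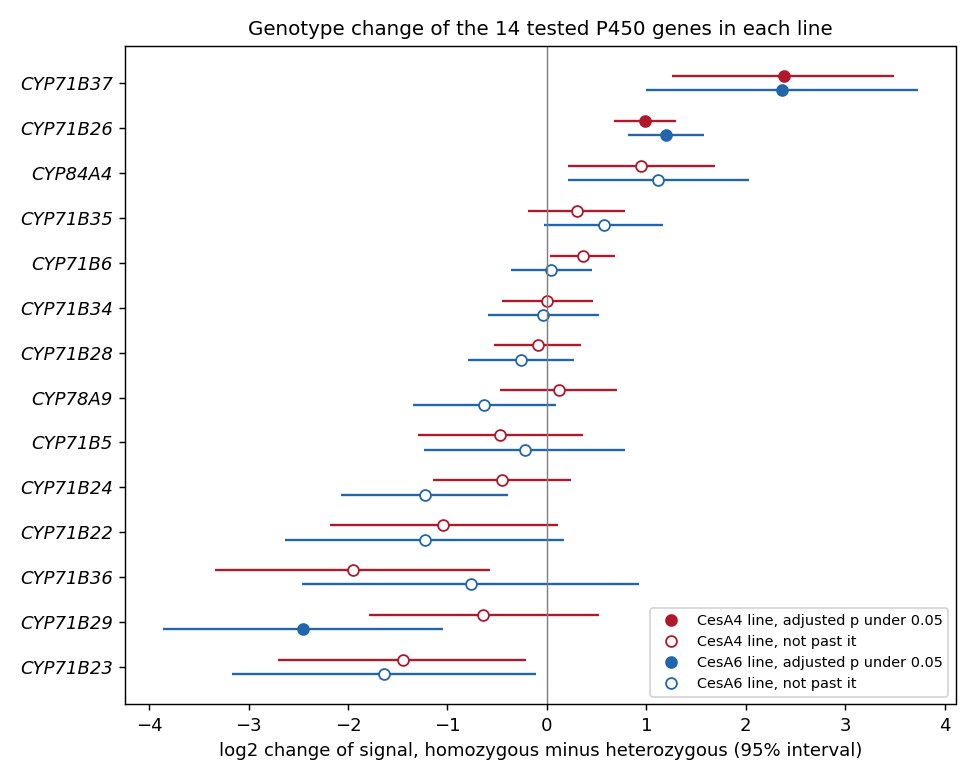
Log2 change of signal from heterozygous to homozygous plants for the 14 tested P450 genes in the CesA4 line (red) and the CesA6 line (blue), with 95% intervals of the limma fit as lines and filled points where the adjusted p was under 0.05. CYP71B37 and CYP71B26 are filled in both lines and CYP71B29 in the CesA6 line.

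As a set, the 14 genes did not move in 1 direction with genotype. The median log2 change was -0.04 in the CesA4 line and -0.24 in the CesA6 line, against 0.02 and -0.04 over all tested probe sets. Over both lines 5 estimates were above 0 and 9 below. The median size of the change, without its sign, was 0.94 over both lines, against 0.26 over all tested probe sets. It was 0.56 against 0.31 in the CesA4 line and 0.94 against 0.32 in the CesA6 line. For the difference between these changes it was 0.23 against 0.36. Such a size also grows with the error of the estimates, and the probe sets compared were not matched for signal or error. Among the tested genes the groups did not overlap for 3 higher and 3 lower genes in the CesA4 line, where 15.8% and 13.9% of all tested probe sets were so placed. In the CesA6 line they did not overlap for 4 higher and 5 lower genes, where the shares over all tested probe sets were 23.1% and 28.6%. The 12 tested CYP71B genes held 2 of the 3 that rose over both lines and all 3 that fell, with a median of -0.26.

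For the 3 genes with mean signals above 100 the standard error ran from 0.15 to 0.21 in the CesA4 line and from 0.18 to 0.26 in the CesA6 line. For the 2 tested genes with means of 20 or below, CYP71B29 and CYP71B36, it ran from 0.56 to 0.67 and from 0.68 to 0.82. For the 9 genes between these levels it ran from 0.22 to 0.56 and from 0.27 to 0.68. CYP71B23 had errors of 0.56 and 0.68, those of the dimmer CYP71B29, and CYP71B24 had 0.33 and 0.41. Without homozygous CesA4 replicate 1 the errors of CYP71B23 were 0.27 and 0.30. What set the errors was not tested.

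The members share a position that the rule did not use. In the reference, 11 of the 18 CYP71B members lie in 1 stretch of chromosome 3 from AT3G26150 (CYP71B16) to AT3G26330 (CYP71B37), which holds 25 genes, 18 of them with P450 symbols. Of these 11 members 8 were tested and 4 passed over both lines, 2 higher and 2 lower, with a median log2 change of -0.43. Over all tested probe sets 18.2% passed, 9.06% higher and 9.14% lower, with a median of -0.01. CYP71B22 and CYP71B23, next to each other, both had estimates below 0, and CYP71B24 lies on the far side of CYP71B3, which is not analysed here. At the other end CYP71B34, CYP71B35, CYP71B36 and CYP71B37 follow each other directly. There CYP71B37 rose in both lines, while its direct neighbour CYP71B36 stood at -1.95 ± 0.67 and -0.76 ± 0.82 and did not pass. Of the 5 pairs of directly neighbouring tested members, CYP71B28 with CYP71B29 and CYP71B22 with CYP71B23 had estimates of the same sign over both lines. CYP71B35 with CYP71B36 and CYP71B36 with CYP71B37 had estimates of opposite sign. CYP71B34, at -0.02 ± 0.17 and at 0.01 with arrays centred on the median, had no settled sign beside CYP71B35. Neighbouring genes of a subfamily can be alike in sequence, and binding of a transcript to the probes of a relative was not tested.

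**Figure D4:**
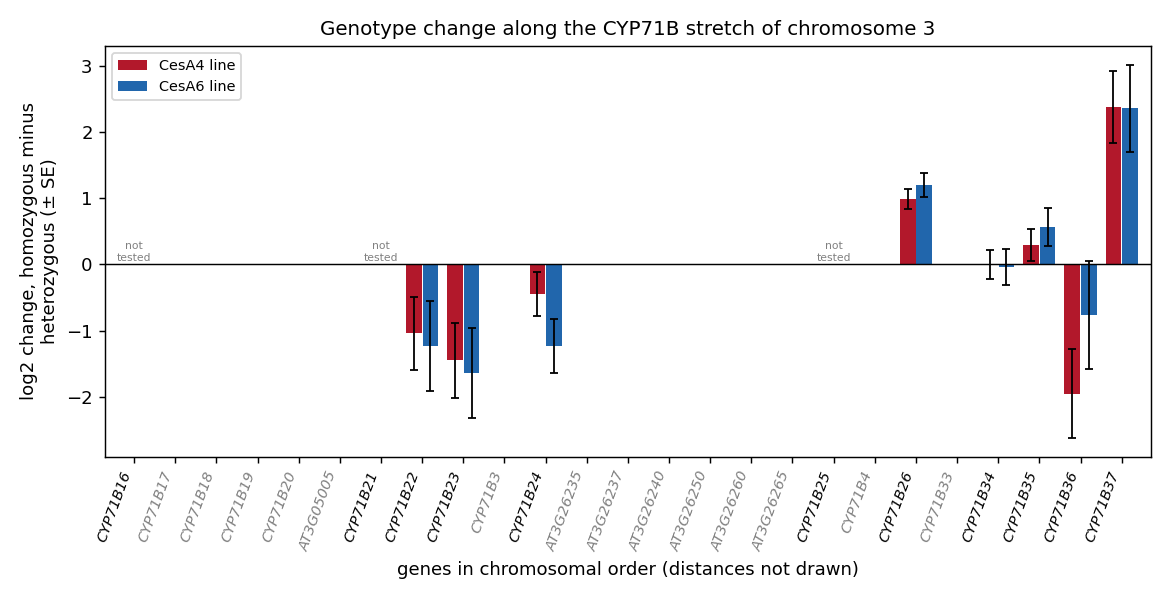
Log2 change of signal from heterozygous to homozygous plants (bars, ± SE of the limma fit) for the CYP71B members along the stretch of chromosome 3, with the genes in chromosomal order and distances not drawn. Names in grey are genes that are not members. CYP71B22, CYP71B23 and CYP71B24 have bars below 0 in both lines, CYP71B26 and CYP71B37 bars above 0.

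Outside this stretch 7 CYP71B genes were members and 4 were tested, CYP71B5, CYP71B6, CYP71B28 and CYP71B29. CYP71B29 alone passed a genotype comparison, and its direct neighbour on chromosome 1, CYP71B28, stood at -0.09 ± 0.21 in the CesA4 line and -0.26 ± 0.26 in the CesA6 line.

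The second question was whether the genotype changes differ between the lines. The CesA6 change was subtracted from the CesA4 change. None of the 14 genes passed limma's test, and none had an unadjusted p under 0.05, where 0.553% of all tested probe sets passed. CYP71B29 had the largest difference, at 1.81 ± 0.88 (adjusted p = 0.419), with a 95% interval from -0.01 to 3.63. The difference was -0.21 for CYP71B26, with an interval from -0.70 to 0.28, and 0.01 for CYP71B37, with an interval from -1.75 to 1.77. The median standard error of these differences was 0.54, so that a miss of the threshold does not show that the lines changed alike.

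The third question was how P450 levels differ between the lines apart from genotype. Subtracting CesA6 from CesA4 levels, averaged over the genotypes with equal weight, gave 2 calls among the 14 genes (14.3%, against 6.75% of all tested probe sets), CYP71B23 and CYP71B6, both lower in the CesA4 line, where 4.11% of all were called lower. CYP71B23 differed by -2.02 ± 0.44 on the log2 scale (limma, adjusted p = 0.0244). Its heterozygous means were 47.0 ± 9.26 in the CesA4 line (SD, n = 3) and 212 ± 28.6 in the CesA6 line (n = 2), and its homozygous means were 19.4 ± 14.1 and 68.5 ± 27.7. Within the heterozygous and within the homozygous plants the line difference was -2.11 ± 0.62 and -1.93 ± 0.62, and neither passed alone (adjusted p = 0.0732 and 0.262). Every CesA4 array of a genotype lay below every CesA6 array of that genotype. The call over both genotypes was lost without heterozygous CesA4 replicate 1 (adjusted p = 0.078), homozygous CesA6 replicate 1 or 2 (0.0931 and 0.055) or heterozygous CesA6 replicate 1 (0.0636), with a pseudocount of 4 (0.0708) and with eBayes without trend and robust (0.0526).

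CYP71B6 had signals of 225, 255 and 189 in homozygous and 159, 193 and 164 in heterozygous CesA4 plants. In the CesA6 line it was at 279 and 274 in homozygous and 282 and 254 in heterozygous plants. The CesA4 arrays lay below the CesA6 arrays except for homozygous replicate 2, which lay just above heterozygous CesA6 replicate 2. The line difference was -0.48 ± 0.13 (limma, adjusted p = 0.022), at -0.64 ± 0.18 within heterozygous plants (adjusted p = 0.0291) and -0.32 ± 0.18 within homozygous plants (adjusted p = 0.58). In the heterozygous comparison CYP71B6 was the only P450 gene that passed, where 8% of all tested probe sets did and 4.59% were called lower. None passed in the homozygous comparison by limma, where 3 had an unadjusted p under 0.05 and 1.3% of all tested probe sets passed. The call over both genotypes was lost without homozygous CesA4 replicate 3 (adjusted p = 0.0502), heterozygous CesA4 replicate 1 (0.0521), homozygous CesA6 replicate 1 or 2 (0.0835 and 0.0714) or heterozygous CesA6 replicate 1 or 2 (0.128 and 0.0501), and with eBayes without trend and robust (0.0995).

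Of the 14 genes 13 had an estimate below 0 in the line comparison (92.9%, against 52% of all tested probe sets), with a median of -0.41 against -0.02. CYP71B29 was the exception, at 0.87 ± 0.44, from 1.77 ± 0.62 within homozygous and -0.04 ± 0.62 within heterozygous plants. CYP71B28 stood at -0.48 ± 0.17 (limma, adjusted p = 0.091), CYP71B24 at -0.62 ± 0.26 (adjusted p = 0.175) and CYP71B26 at -0.31 ± 0.12 (adjusted p = 0.125). None of these passed. Within heterozygous plants they stood at -0.56, -1.01 and -0.21 in that order, and within homozygous plants at -0.39, -0.23 and -0.42. Under the alternatives that tested the same number of genes, 12 or 13 of the 14 genes had an estimate below 0. Line and any difference in the handling of the lines cannot be told apart. In leaf tissue measured in bulk, fewer cells of a type and less RNA per cell cannot be told apart either.

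Other genes of the pathways that P450s serve were taken from lists by locus. These lists, with P450 redox partners among them, held 171 genes, of which 10 had a probe set named with 1 gene and 8 were tested. For CesA4 plants 3 of the 8 passed, all higher, where 15.1% of all tested probe sets passed and 8.2% were called higher. For CesA6 plants none passed by limma, where 8.53% of all did, and HCT and AT3G02280 had an unadjusted p under 0.05. Over both lines 3 passed, all higher, where 18.2% of all passed and 9.06% were called higher. Between the lines 2 passed, both lower in the CesA4 line, where 4.11% of all were called lower. The lists were taken up with results of these data known. All 31 listed P450 genes that carry another symbol, such as the cinnamate hydroxylase C4H, were without such a probe set and are not analysed here. UGT74B1 (AT1G24100), the glucosyltransferase of glucosinolate core synthesis, rose in the CesA4 line by 0.68 ± 0.16 (limma, adjusted p = 0.0045) and stood at -0.29 ± 0.20 in the CesA6 line (adjusted p = 0.446). The difference between these 2 changes did not pass, at 0.97 ± 0.25 (adjusted p = 0.0925). Within heterozygous plants UGT74B1 was lower in the CesA4 line, at -0.67 ± 0.18 (limma, adjusted p = 0.0242). Within homozygous plants the line difference was 0.30 ± 0.18 (adjusted p = 0.611). BCAT4 (AT3G19710), which starts the chain elongation of methionine for aliphatic glucosinolates, stood at 0.72 ± 0.25 and -0.52 ± 0.30 and did not pass. HCT (AT5G48930), of the phenylpropanoid pathway that also feeds CYP84A4, rose over both lines by 0.46 ± 0.11 (adjusted p = 0.00381). AT3G02280, a flavoprotein related to the P450 reductases, passed narrowly over both lines, at 1.07 ± 0.37 (limma, adjusted p = 0.0492). It passed in neither line alone, at 0.51 ± 0.47 in the CesA4 line (adjusted p = 0.546) and 1.64 ± 0.58 in the CesA6 line (adjusted p = 0.0881). Its CesA6 signals were 37.7 and 39.3 in homozygous and 28.1 and 2.56 in heterozygous plants, and its CesA4 arrays overlapped. The alternatives were not run for this gene. DFR (AT5G42800), a reductase of anthocyanin synthesis, rose in the CesA4 line by 1.01 ± 0.16 (adjusted p = 7.84e-05) and stood at 0.27 ± 0.20 in the CesA6 line (adjusted p = 0.497). Its difference between those changes did not pass, at 0.74 ± 0.25 (adjusted p = 0.222). Averaged over the genotypes, DFR was lower in the CesA4 line, at -0.55 ± 0.13 (limma, adjusted p = 0.00849). Within heterozygous plants DFR differed by -0.92 ± 0.18 (adjusted p = 0.00238), and within homozygous plants by -0.18 ± 0.18 (adjusted p = 0.807).

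OPCL1 (AT1G20510), a ligase of jasmonate synthesis, was lower in the CesA4 line by -0.77 ± 0.15, averaged over the genotypes (limma, adjusted p = 0.0023). Within heterozygous plants OPCL1 differed by -1.08 ± 0.21 (adjusted p = 0.00267), and within homozygous plants by -0.45 ± 0.21 (adjusted p = 0.458).

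The leaf identity of the samples was set beside marker genes. The summed signal of the 3 named mesophyll genes (RCA, SBPASE and PRK, of 12 listed) ran from 16629 to 19237 over all arrays. Among them SBPASE, an enzyme of the Calvin cycle, was lower in homozygous CesA4 plants, with signals of 2779, 2577 and 3049 against 3732, 3354 and 4052, which do not overlap. Its log2 change was -0.40 ± 0.12 (limma, adjusted p = 0.0224) in the CesA4 line and 0.05 ± 0.15 in the CesA6 line, and its part in the P450 results was not tested. RCA and PRK passed in neither line. RCA stood at 0.07 ± 0.10 in the CesA4 line and 0.09 ± 0.13 in the CesA6 line, and PRK at -0.08 ± 0.13 and 0.15 ± 0.16. The 2 named root genes of 6 listed, PYK10 and EXPA7, summed to 286 to 443 in homozygous and 102 to 314 in heterozygous CesA4 plants. They summed to 279.6 to 362 in homozygous and 109 to 130.4 in heterozygous CesA6 plants, nearly all of it PYK10. EXPA7 was at 11.8 or below on every array and was not tested. In the CesA6 line EXPA7 lay the other way from PYK10, at 1.79 and 1.21 in homozygous and 9.05 and 11.8 in heterozygous plants. Its CesA4 arrays overlapped, at 2.24, 1.42 and 0.740 in homozygous and 5.18, 0.750 and 0.858 in heterozygous plants. PYK10 was higher in homozygous plants over both lines by 1.27 ± 0.27 on the log2 scale (limma, adjusted p = 0.00682), and its part in the P450 results was not tested. The guard cell gene FMA was the only 1 named of 3 listed, at 26.1 to 58.2, and markers of flowers, xylem, epidermis and phloem had no named probe set here.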

How the data were processed

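RNA from 10 rosette samples was hybridised to ATH1 arrays. The deposited values are MAS5 intensities (linear, not log), made with MAS5 and GCOS per the submitters' processing notes and scaled by the authors to a trimmed mean of about 100. No other upstream step is given in the sources used here. Arrays were rescaled to a 2% trimmed mean of 500 and log2(signal + 16) was taken. Control probe sets and the lowest 30% by mean were left out. The remaining 15922 probe sets were fitted with 4 group means over all arrays in limma 3.58.1 (R 4.3.3; eBayes with trend and robust, 6 residual degrees of freedom) and adjusted by Benjamini-Hochberg. The fit was tested on simulated data. Array medians were 32 to 37.68. Arrays of a group correlated at 0.927 to 0.946 and arrays of different groups at 0.897 to 0.947, so these ranges overlap. The number of arrays limits the precision.

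Gene names came from the annotation of the platform, with symbols updated by gene ID through RefSeq for TAIR10.1. Of all probe sets 13513 had 1 gene, 503 several and 8730 none named. Members past the threshold in any comparison were named. Array values were given for those with the largest changes and for the tested members of the role groups. They were also given for some other members, CYP71B36 and the untested CYP71B21 and CYP79A2. The members and lists were chosen with earlier results of these data known, and the line comparisons within 1 genotype were added after values were seen. Scaling, pseudocount, filter, moderation, replicate block and left-out arrays were varied.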

Additional observations from a re-analysis of the deposited data

How the results depend on the processing

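No P450 call changed direction under the alternatives run. CYP71B26 passed under every alternative in both lines. The number of genes called in the CesA4 line was 2, and it was 4 with a pseudocount of 64, 1 with the lowest 50% left out (7 genes tested), 4 with eBayes without trend and robust, and 2 to 4 with 1 array left out, the most without homozygous CesA4 replicate 3. In the CesA6 line it was 3, and 5 with a pseudocount of 64, 1 with the lowest 50% left out, and 1 to 4 with 1 array left out. It was 1 without homozygous CesA6 replicate 1 or 2 or heterozygous CesA6 replicate 1. Over both lines it was 6, and 2 with the lowest 50% left out and 2 to 7 with 1 array left out, at 3 and 2 without heterozygous CesA6 replicate 1 and 2. For the difference between the lines it was 0 under all alternatives. For the line comparison it was 2, and 1 with a pseudocount of 4, 0 with eBayes without trend and robust, and 0 to 2 with 1 array left out. It was 0 without heterozygous CesA4 replicate 1, homozygous CesA6 replicate 1 or 2 or heterozygous CesA6 replicate 1, and 1 without heterozygous CesA6 replicate 2. Why these counts changed was not tested.

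With arrays centred on the median, the higher and lower calls over all probe sets went from 593 and 765 to 799 and 606 in the CesA6 line, from 53 and 35 to 28 and 65 for the difference, and from 420 and 654 to 563 and 519 for the line. The P450 calls kept their directions. With the replicate number as a block the P450 counts were 2, 3, 7, 0 and 2 in the order above. The call of CYP71B6 between the lines was lost under the block (adjusted p = 0.0769 by limma), and those of CYP71B26 between the lines (0.0398) and CYP71B22 over both lines (0.045) were gained. Same-numbered arrays correlated in their deviations from the group mean at 0.01, 0.08 and 0.06 in the CesA4 line. In the CesA6 line they correlated at 0.04, and with 2 arrays per group both pairs give the same value by arithmetic. The numbers were not taken to pair the samples.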
